A study of Homo sapiens with 12 samples.

Results

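Untreated Ect1 cells were described from the 4 arrays labelled as control replicates, out of 12 arrays in the series. The members were chosen by that label alone, and no treated array entered any value. Ect1 is a line of human ectocervical epithelium immortalised with papillomavirus oncogenes, so all 4 replicates share 1 genotype and do not show how people differ. The cells grew in serum-free keratinocyte medium with 0.1 ng/ml recombinant human EGF, 0.05 mg/ml bovine pituitary extract and 0.4 mM calcium chloride. Wells were seeded with 100000 cells in 500 µl and kept for 2 to 3 days until confluent, after which the medium was replaced with the same medium alone for 10 h. Each replicate was a biological replicate that pooled its own set of 4 wells, and the labels do not say which wells took 2 and which 3 days. The other 8 arrays held cells given 10% pooled human seminal plasma by volume, or TGFB3 at 5 ng/ml.

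The ectocervix is covered by stratified squamous epithelium. Its basal cells carry keratins 5 and 14 and the transcription factor p63, divide, and attach to a laminin-rich basement membrane. Cells that leave the basal layer assemble a cornified envelope, in which transglutaminases crosslink involucrin and small proline-rich proteins, and they make protease inhibitors and antimicrobial proteins. In culture, calcium and contact between cells favour that programme, while EGF favours proliferation.

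One group has no contrast, so no test was run, and values are given with the standard deviation (SD) or with all 4 readings. Signals are scaled linear intensities on Affymetrix arrays, and log2 values were taken after values under 16 were set to 16. Each gene was represented by its brightest probe set on these arrays. Probe sets bind their targets with different strength, so an order of genes is an order of signals and not of transcript numbers. Of 156 genes named here with a mean at or above 200, 14 fell below it on the log2 scale when the probe set types that can match several genes (suffixes _s_at and _x_at) were left out where another existed: ASNS, AURKA, B2M, CDKN1A, CXCL14, EGFR, FN1, HUWE1, IL1A, IL1RN, MYC, P4HA1, PERP and TGFB1. Their level rests on such a probe set. With the median over a gene's probe sets, 16 of the 156 fell below 200, among them ERBB2, ERBB3, ESR1, ITGB1, LAMA3, PTGER4, PTGS2 and SMAD4. The median signal over all probe sets was 97.1, 101.7, 93.0 and 88.1 in replicates 1 to 4. The 100 brightest probe sets held 8.32%, 10.0%, 8.22% and 7.66% of the summed signal in the same order, so replicate 2 was the most concentrated in its brightest transcripts. With 4 arrays, every SD is itself a rough estimate.

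Of 19682 genes, 9998 (50.8%) had a signal of at least 200 on all 4 arrays, the level used here for a gene called detected. A further 8226 genes stayed below 200 on every array, and 1458 crossed that level between replicates. The median gene had a mean log2 signal of 8.11, and 463 genes had a mean signal of at least 10000. At the other end, 704 genes were at the floor of 16 on all 4 arrays.

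The brightest gene was KRT6A, a keratin of activated and proliferating squamous epithelium, with signals of 43063, 66768, 41806 and 39664 in replicates 1 to 4. Its mean log2 signal was 15.51 ± 0.35 (SD, n = 4), and replicate 2 stood above the other 3. S100A2, a calcium-binding protein of basal keratinocytes, came next at 42677, 55918, 44116 and 38922. The first 30 genes held 18 genes of ribosomal proteins, headed by RPS23 and RPS3A, and 2 genes of the mitochondrial genome, COX1 and ND2. The rest of the first 30 included the actin gene ACTB, the actin-sequestering TMSB10, the ferritin heavy chain FTH1, the cyclophilin PPIA, the translation factor EEF1A1, TPT1 and KRT14. HUWE1, which encodes a ubiquitin ligase, also stood there at rank 29, through 1 of its 5 probe sets. Among the first 100 genes, 55 encoded ribosomal proteins, 6 keratins and 3 members of the S100A family.

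The markers of the labelled cell type were all bright. KRT14, the type I keratin of basal cells, read 39437, 52884, 36387 and 33515 and held rank 13. KRT5, its type II partner, read 33612, 42853, 33916 and 30577, again highest in replicate 2. TP63, the gene of p63, read 5466, 6261, 7268 and 7329.6, which placed it at percentile 95.8 of all genes, and here replicates 3 and 4 were the higher ones. Of 20 genes of basal keratinocyte identity, 19 were detected, against 50.8% of all genes, and their median percentile was 95.8. The exception was NGFR, a neurotrophin receptor, at 41.6, 4.93, 9.25 and 15.4.

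Of 27 keratins measured, 16 (59.3%) were detected on all 4 arrays, beside 50.8% of all genes. The bright ones combined basal, activation-associated and simple-epithelial members. KRT17 and KRT6B, which squamous cells make under stress and in culture, read 39991, 54580.2, 28505 and 27454 and 26928, 41266, 24600.1 and 24271 respectively. KRT19, KRT18 and KRT8, which are also keratins of simple epithelium, were bright, and KRT19 read 28079, 36236, 35069.8 and 30727. KRT18 read 20563, 20887, 17773 and 16140.00 and KRT8 read 7772, 9192, 7497 and 7565. All 3 varied by less than 0.5 on the log2 scale between their lowest and highest array.

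Keratins of suprabasal layers were uneven. KRT10, the keratin of suprabasal epidermis, read 4485, 5257, 5309.9 and 5220.3, whereas its usual partner KRT1 read 67.1, 20.4, 63.2 and 72.5 and was never at 200. KRT13, the main suprabasal keratin of the ectocervix, read 1233, 789.7, 1028 and 1391, while its partner KRT4 read 172, 88.2, 73.8 and 132. KRT2, KRT3, KRT12, KRT20, KRT24 and KRT34, which belong mainly to other epithelia or to hair and skin, were below 200 on every array. KRT78 was below 200 on every array as well. Among detected keratins, KRT15 and KRT16 differed most between replicates. KRT15, a basal keratin, read 1235, 841, 5966 and 6055, so replicates 3 and 4 were high. KRT16, an activation-associated keratin, read 10709.7, 13767, 2446 and 4058, with replicates 1 and 2 high.

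**Figure D1:**
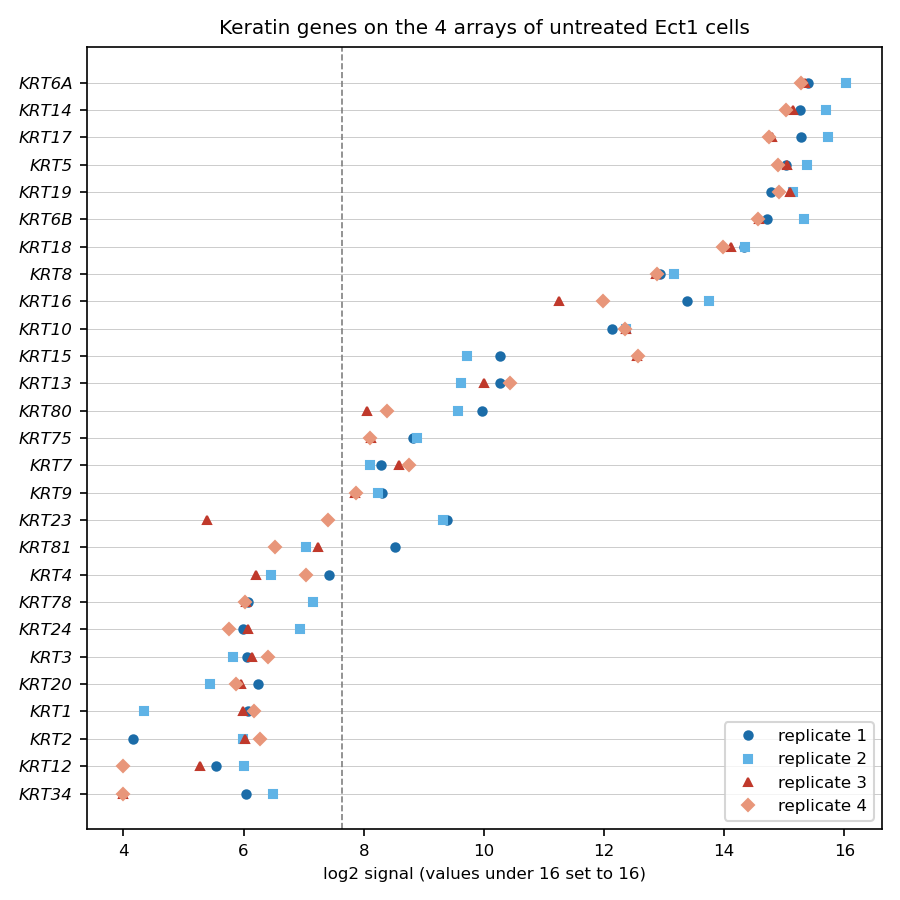
Log2 signal of the 27 measured keratin genes on each of the 4 arrays of untreated cells, ordered by mean; each marker is 1 replicate and the dashed line marks a signal of 200. KRT6A, KRT14, KRT17 and KRT5 head the order with ranges of 0.75, 0.66, 0.99 and 0.49, while KRT15, KRT16 and KRT23 show replicates 1 and 2 apart from 3 and 4 by more.

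Transcription factors of squamous fate were mostly present. Of 22 measured, 18 were detected, with a median percentile of 73. MYC, which drives growth, was the brightest at 9897, 9023, 13298 and 11735. EHF, an epithelial ETS factor, read 7024, 7145, 8047 and 7426, and KLF4, a factor of barrier formation, read 3405, 3513, 3409.99 and 3280.4. SOX2, a factor often amplified in squamous tumours, did not reach 200 on any array, at 82.7, 119.7, 156 and 132. ZNF750, which promotes terminal differentiation, read 631, 869, 171 and 268 and was the most variable of the list.

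Junction genes formed a bright class, while integrins and other matrix receptors were divided. Of 28 such receptors, 15 (53.6%) were detected, beside 50.8% of all genes, and 13 were below 200 on every array. Integrins of the hemidesmosome and of focal contacts included ITGB1 at 17075, 21430.00, 18552 and 18411 and ITGA6 at 8353, 13497, 9019 and 9555. The laminin chains LAMA3 and LAMB3, which anchor basal cells, had mean log2 signals of 12.69 ± 0.34 and 12.68 ± 0.27 (SD, n = 4). Of 30 junction genes, 26 were detected, at a median percentile of 92.8. PERP, a desmosomal protein, read 25267, 36265, 24505 and 25602, the plaque protein DSP read 19508, 32963, 20379 and 20604, and E-cadherin, CDH1, read 13000.00, 12471, 11409 and 10711. The desmosomal cadherins divided by layer: DSG3, of lower layers, read 5971, 6316, 4132 and 4227, while DSG1, of upper layers, read 7.83, 11.4, 18.6 and 39.8.

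The lists of housekeeping functions were the brightest. The median percentile was 99.7 for 46 ribosomal proteins, 98.4 for 23 translation factors, 98 for 38 genes of mitochondrial respiration and 97.8 for 36 proteasome and chaperone genes. A single ribosomal gene, RPS27A, was at 68.7, 10.7, 28.8 and 56, on the only probe set that carried its symbol. All 38 respiration genes were detected. Of 31 genes for glycolysis and the response to low oxygen, 28 were detected, headed by LDHA at 32491, 41952, 31911 and 29459.7 and GAPDH at 31574, 43682, 31014 and 27264.

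**Figure D2:**
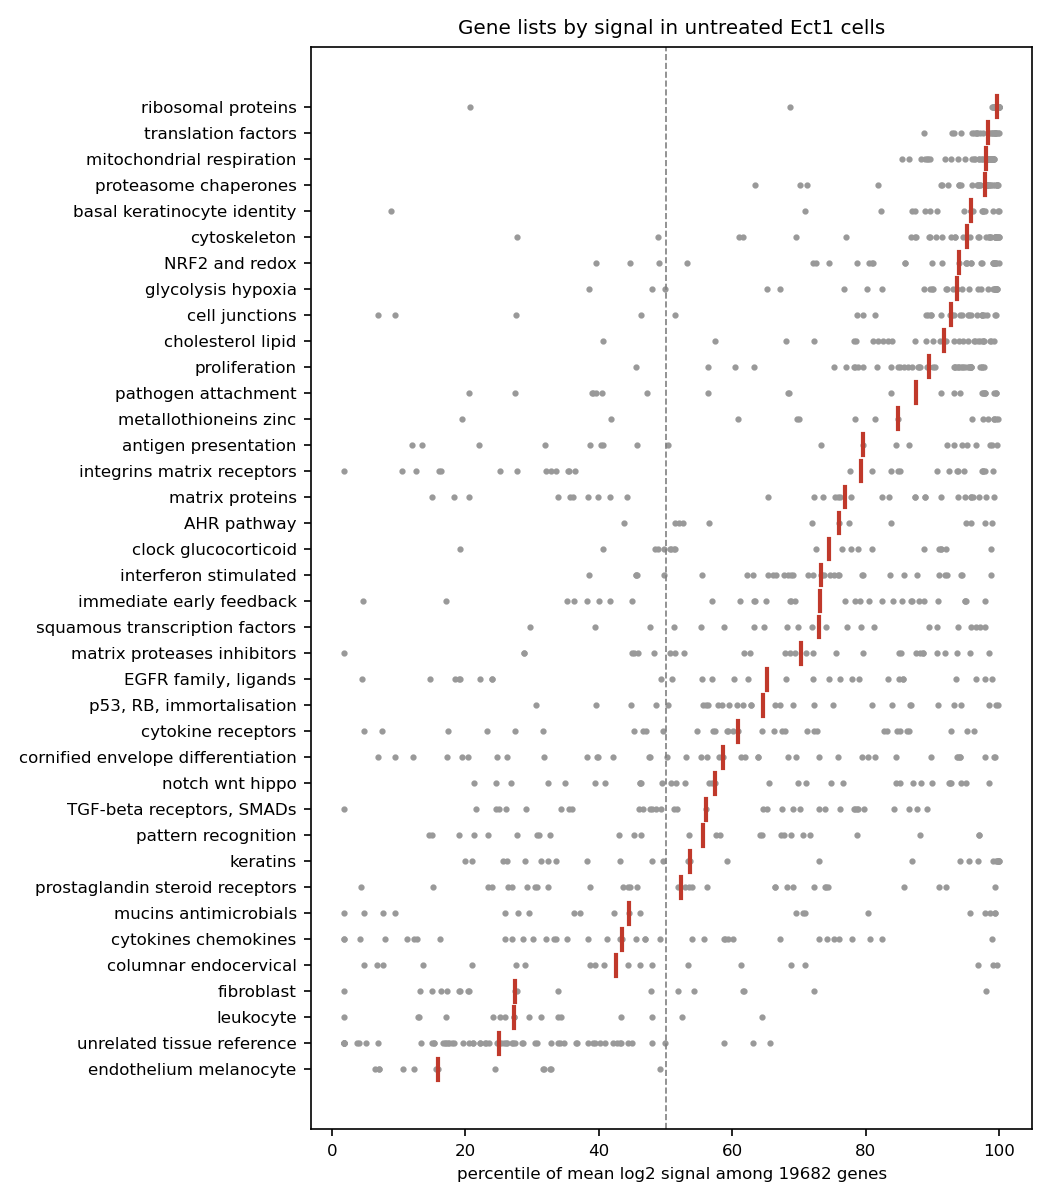
Percentile of each gene's mean log2 signal among all 19682 genes, for the 38 gene lists ordered by their median; each grey point is 1 gene, the red bar is the list's median, and the dashed line is the 50th percentile. Ribosomal proteins lie at a median of 99.7, and genes of endothelium and melanocytes at 15.9.

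The cells carried a proliferative transcript profile. Of 43 proliferation genes, 42 were detected, with a median percentile of 89.4. PCNA, the replication clamp, read 8321, 12589.6, 9877 and 9740.00, and RRM2, a subunit of ribonucleotide reductase, read 8937, 7385, 11318 and 10485. CDKN2A, the gene of p16, which papillomavirus-immortalised cells are known to express strongly, read 13776, 14665, 13822 and 12364 and stood at percentile 98.5. CDKN1A, the gene of the cell cycle inhibitor p21, read 3755, 4856, 4929 and 4819. SFN, the epithelial 14-3-3 protein, was among the brightest genes at 36232, 44348, 35126 and 30247.

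Receptors through which the culture medium and the study's agents act were measured at baseline. EGFR read 10269, 11992, 10664 and 11137 and stood at percentile 97.9. On this brightest of its 8 probe sets the 4 arrays spanned 0.22 on the log2 scale, and on another 0.39. Dimmer probe sets read 988, 994, 499 and 463 and 997, 769, 344 and 386, with replicates 1 and 2 higher. Of the relatives of EGFR, ERBB2 read 944, 1084, 1302 and 1470.00 and ERBB3 816, 867, 779.6 and 853, while ERBB4 read 70.6, 48.8, 27.3 and 40.5 and was never at 200. Among EGFR ligands, TGFA read 1896, 2703, 1658 and 1744 and EREG 972, 1164, 1579 and 1572, and HBEGF read 284, 275, 556 and 594 with replicates 3 and 4 high.

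Of the TGF-beta receptors, TGFBR1 and TGFBR2 were detected. TGFBR2, which binds the ligand first, read 2908, 2556, 3258 and 3301, and its signalling partner TGFBR1 read 2150.4, 2881, 2886 and 2635. The co-receptor TGFBR3 read 198, 150.3, 309 and 299, on both sides of 200. Of the ligands, TGFB1 read 937, 772, 1018 and 1059.9, whereas TGFB2 and TGFB3 were below 200 on every array, at 64, 41.5, 40.2 and 39.6 and 93.9, 126, 85.9 and 66.4. The transducers SMAD2, SMAD3 and SMAD4 read 1999.8, 1911, 2088 and 2219.8, 580.2, 643, 808 and 738 and 1742, 1749, 1394 and 1436 respectively, and the inhibitor SMAD7 read 299, 358, 305 and 260.2. Over the whole list of 35 genes, 20 (57.1%) were detected, beside 50.8% of all genes, and the median percentile was 56.1.

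Of 32 genes of prostaglandin synthesis and of prostaglandin, steroid and other nuclear receptors, 16 (50%) were detected, beside 50.8% of all genes. Among nuclear receptors, RXRA, a shared partner of many of them, read 3774, 3401, 3729 and 3174, and the lipid sensor PPARD read 2626, 2715, 1783 and 2106. Of the prostaglandin E receptors, PTGER4 was detected at 682, 698, 987 and 1053, while PTGER1, PTGER2 and PTGER3 stayed below 200 on every array. The glucocorticoid receptor NR3C1 read 3251, 3562, 4501 and 4729.7, and the oestrogen receptor ESR1 read 1191, 1344, 1054 and 1028. The progesterone receptor PGR stayed below 200 on every array, at 11.4, 94.8, 62.5 and 40.3. PTGS1 and PTGS2, the cyclooxygenases, read 1132, 1124, 1148 and 1294 and 321, 454, 264 and 325 respectively.

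Genes of innate sensing were present in part. Of 8 Toll-like receptors measured, TLR2, the sensor of bacterial lipoproteins, and TLR3, the sensor of double-stranded RNA, were detected at 1259.7, 1061, 794 and 798 and 638, 471, 428 and 406. TLR5 read 196, 125, 128 and 207, and TLR1, TLR4, TLR6, TLR7 and TLR8 were below 200 on every array. CASP1 and IFI16, which act in inflammasomes and DNA sensing, were the brightest of the 26 genes at 7339.6, 8176, 8936 and 8383 and 7864, 7078, 9356 and 8502. Antigen presentation divided by class. B2M, the light chain of class I molecules, read 30333, 37806, 28131 and 24556, whereas the class II gene HLA-DRA read 5.58, 38.8, 18.1 and 35.2.

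Of 39 cytokines, 16 (41.0%) were detected, beside 50.8% of all genes, and their median percentile was 43.4. MIF was the brightest at 15983, 21158, 18587 and 16532, followed by the growth factor VEGFA at 1591, 1847, 2122 and 1892 and the chemokine CXCL14 at 1908, 2446, 1121 and 1456. IL1A, an alarmin of epithelial cells, read 912, 1098, 1649 and 1618, and its antagonist IL1RN read 1619.8, 1707, 1019.9 and 1434. CCL2 and IFNB1 were under the floor on every array.

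Markers of other cells were mostly dim. None of 13 endothelial and melanocyte genes was detected, nor were the leukocyte markers CD3E, CD2 and NKG7. Of 17 leukocyte genes, CD14 and CSF1R were detected at 589.6, 586, 785 and 789.7 and 448, 301, 289.5 and 297. Of 19 fibroblast genes, 6 were detected and 12 were below 200 on every array, LUM, PDGFRA and POSTN among them. The brightest were VIM, a filament gene common in cultured cells, at 12432, 13418, 9668 and 9626, and the collagen gene COL1A1 at 2214, 1493, 621 and 576. The other 4 were TWIST1 at 638, 512, 578 and 627, the smooth muscle actin ACTA2 at 559.96, 579, 623 and 575, the fibroblast activation protein FAP at 486, 362, 328 and 332 and THY1 at 280.3, 349.9, 314 and 315. Of 20 columnar markers, 7 (35%) were detected, beside 50.8% of all genes, including the keratins given above, the mucin MUC1 and AGR2. AGR2 read 377, 448, 760 and 849, with replicates 3 and 4 high. PAX8, also on the list, had a mean log2 signal of 9.76 on the brightest of its 8 probe sets. MUC5B, a mucin of the endocervix, read 9.39, 8.62, 8.38 and 20.1. A reference list of 67 genes of unrelated tissues had a median percentile of 25.1, and 4 of them (MBP, NEFM, KLK3 and TNNI3) were above 200 on all arrays. In bulk RNA, a smaller number of cells of a type and less RNA per cell cannot be told apart.

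The 4 replicates were close for most genes. Among 10636 genes with a mean log2 signal at or above that of 200, the median SD was 0.20 and the median distance between the highest and lowest array was 0.45 on the log2 scale. In 768 of these genes (7.22%) that distance, called the range below, was at least 1, which is a 2-fold difference. Without replicate 1 the count was 473 and without replicate 2 it was 485. The share depended on signal: it was 15.2% for mean signals of 200 to 500 and 1.51% at 5000 and above. Replicates 3 and 4 were the closest pair, with a median absolute difference of 0.11, and replicates 1 and 2 followed at 0.21. The other 4 pairs lay at 0.25 to 0.26.

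Wide ranges followed that pairing in part. Of the 768 genes, 418 had 1 array apart from the other 3, most often replicate 1 as the low one (118 genes) or replicate 2 as the low one (101 genes). A further 168 (1.58% of the 10636) had their largest gap between a higher pair, replicates 1 and 2, and a lower pair, 3 and 4. Another 165 (1.55%) had it the other way round, and 17 had any other split into pairs. With arrays centred on their medians, which moved replicates 1 to 4 by -0.03, -0.10, 0.03 and 0.11, the counts were 112 and 322. At any distance, both of replicates 1 and 2 lay above both of 3 and 4 in 24.4% of the 10636 genes, and the reverse held in 32.7% (13.4% and 46.4% after median centring). The labels name no batch, scan day or culture run, and the order was read from the data, so these counts are descriptions. The gene lists set beside all genes below were chosen with earlier results of these data known. Their shares are therefore descriptions too, and no excess was tested. In 130 of the 333 paired genes another probe set of the same gene was bright enough to compare, and 137 of 183 such probe sets gave the same order and 5 the opposite one.

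**Figure D3:**
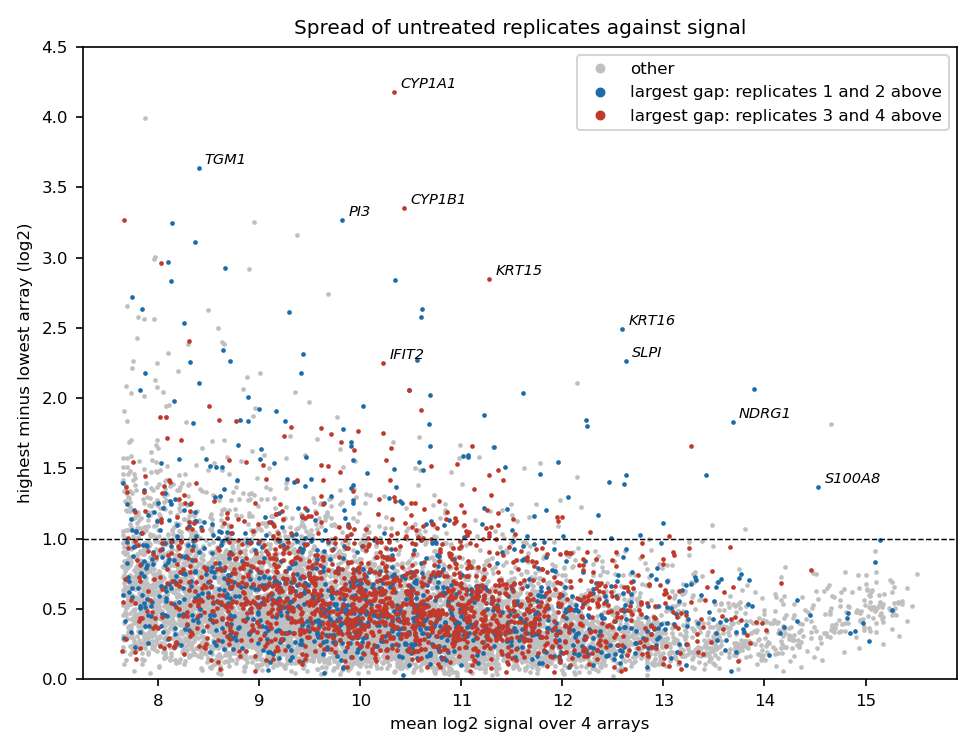
Range over the 4 untreated arrays (log2, highest minus lowest) against mean log2 signal for the 10636 genes at or above a mean signal of 200; blue points have replicates 1 and 2 above the largest gap, red points replicates 3 and 4, grey points any other split. Most genes lie below the dashed line at 1, and CYP1A1 has the widest range at 4.18.

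Genes of terminal differentiation differed between these pairs of replicates. Of 28 genes of the cornified envelope list with a mean signal of at least 200, 17 (60.7%) had a range of at least 1, beside 7.22% of all genes. Both of replicates 1 and 2 lay above both of 3 and 4 in 25 of the 28, beside 24.4% of all genes, and the reverse occurred in none (25 and 1 after median centring). The median deviation from each gene's mean was 0.68, 0.57, -0.91 and -0.41 in replicates 1 to 4. TGM1, the transglutaminase that crosslinks the envelope, read 1254, 997, 103 and 101, a range of 3.64 or 12.4-fold. Replicates 3 and 4 were thus below the detection level, and replicates 1 and 2 well above it. IVL, the envelope precursor involucrin, read 1979.9, 893, 221 and 493, highest in replicate 1 and lowest in replicate 3.

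Small proline-rich proteins, which are crosslinked into the envelope, gave the same order at a higher level. SPRR1B read 7896, 7769, 2265 and 3973, and SPRR1A read 7845, 8215, 2287 and 3675. The squamous serpins SERPINB3 and SERPINB4, protease inhibitors of maturing epithelium, read 3595, 3702, 699.5 and 620.03 and 818, 741, 119.7 and 86 in turn. The pair are near-identical genes whose probe sets may share signal. KRTDAP, a marker of differentiating keratinocytes, read 891, 1115, 117 and 505, so replicate 4 lay nearer to replicates 1 and 2 than replicate 3 did. FLG and DSG1, which mark the outermost layers, were below 200 on every array.

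The regulators and junction genes that accompany maturation included some of the same order and some of the reverse. Of 20 squamous transcription factors with a mean signal of at least 200, replicates 1 and 2 both lay above 3 and 4 in 6. The reverse held in 9. Of 27 junction genes with such a mean signal these counts were 13 and 6. Among all genes the shares were 24.4% and 32.7%. ZNF750 has been given above, and GRHL1, a grainyhead factor of desmosome genes, read 2051, 2006, 860.4 and 979.6. The connexin genes GJB2 and GJB6, which form gap junctions of stratified epithelium, read 5214, 6767, 2761 and 3341 and 2557, 2382, 912 and 1095. In contrast, KLF4 spanned 0.10 and KRT10 0.24 on the log2 scale, and KRT13 did not separate the pairs. KRT15 was high in replicates 3 and 4, at a range of 2.85. PADI3, which citrullinates proteins of hair and upper epidermis, also read higher there, at 101, 58.9, 494 and 567.

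The 250 bases before the annotated start of SPRR1B and IVL are shown because both genes gave this order and both windows hold the AP-1 motif TGANTCA. They come from RefSeq's GRCh38.p14 annotation, run 5′ to 3′ on the gene's strand, and carry motif matches of either strand in capitals. SPRR1B lies on the plus strand at chr1:153030953-153031202 and has 2 matches, and IVL lies on the plus strand at chr1:152908296-152908545 and has 1. SPRR1A and KRTDAP have 1 match each, while the windows of SERPINB3 and of CNFN, a cornified envelope gene that read 445, 564, 91 and 121, have none. The motif was found in 6.60% of 27305 promoter windows of the same length, and in 3.80% of those of genes with a mean signal of at least 200. A match is a description of letters and not of binding.
SPRR1B: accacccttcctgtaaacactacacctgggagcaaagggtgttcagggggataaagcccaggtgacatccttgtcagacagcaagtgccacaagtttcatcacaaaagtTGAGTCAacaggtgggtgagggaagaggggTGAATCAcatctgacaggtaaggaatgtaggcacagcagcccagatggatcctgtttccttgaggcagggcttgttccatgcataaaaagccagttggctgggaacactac
IVL: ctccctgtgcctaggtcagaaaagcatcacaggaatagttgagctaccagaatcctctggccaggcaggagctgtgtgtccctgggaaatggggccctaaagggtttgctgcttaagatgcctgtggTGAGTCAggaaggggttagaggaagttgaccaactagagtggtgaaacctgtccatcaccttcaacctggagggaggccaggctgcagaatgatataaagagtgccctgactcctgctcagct

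**Figure D4:**
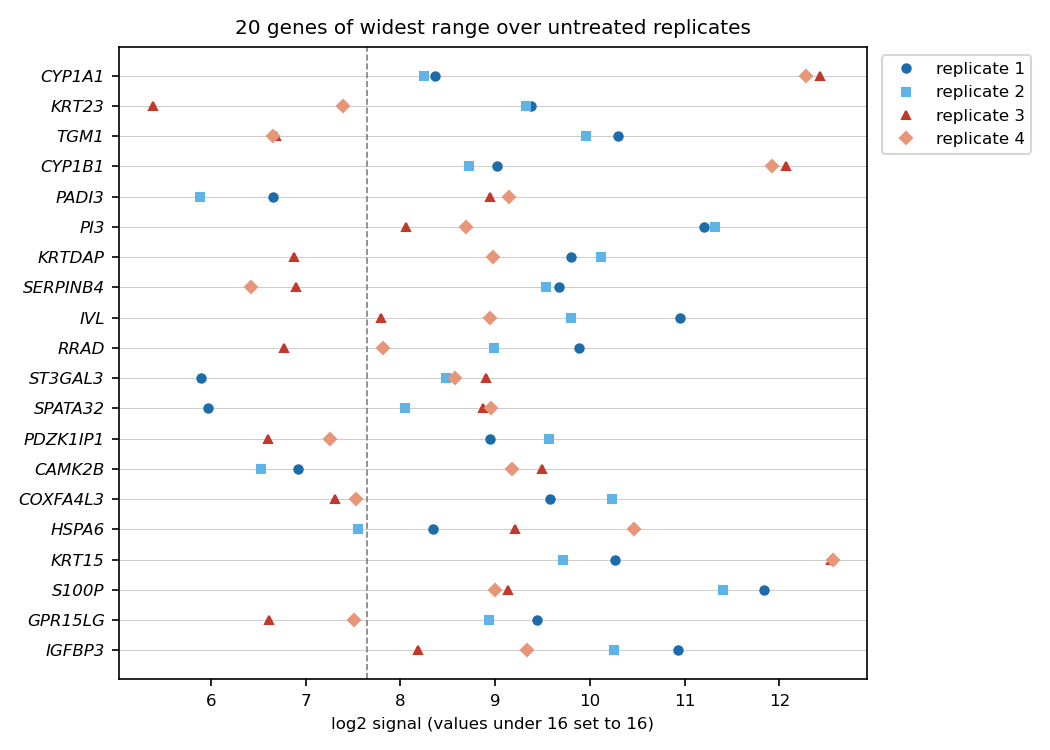
Log2 signal of the 20 genes with the widest range among those at or above a mean signal of 200, on each of the 4 untreated arrays; the dashed line marks a signal of 200. CYP1A1, CYP1B1, PADI3, CAMK2B and KRT15 have replicates 3 and 4 on the right, and TGM1, PI3, SERPINB4 and S100P have replicates 1 and 2 there.

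Antimicrobial and protease-inhibitor genes of the mucosal surface followed the differentiation genes. Of 10 such genes with a mean signal of at least 200, 7 (70%) had a range of at least 1, beside 7.22% of all genes. In 9 both of replicates 1 and 2 lay above both of 3 and 4, beside 24.4% of all genes; the reverse occurred in 1 after median centring or quantile normalization. The list shares PI3, S100A7, S100A8 and S100A9 with the cornified envelope list. SLPI, the secretory leukocyte protease inhibitor, read 11560.00, 14263, 2971 and 3299, a 4.8-fold spread in one of the brightest genes of the list. PI3, the elastase inhibitor elafin, read 2357, 2559.6, 266 and 415. S100A8 and S100A9, which together form the antimicrobial protein calprotectin, read 34806, 38834, 15506 and 15080.1 and 15809, 18209, 7599 and 6659.6 in turn. MUC1, a membrane mucin, read 1492, 1496, 627 and 644, and the iron-sequestering LCN2 read 1665, 1661, 516 and 602. MUC16, a membrane mucin whose mean log2 signal was below that of 200, read 433, 324, 28.5 and 20.5, a range of 4.40. S100P, which is not on either list, read 3658, 2712, 562 and 511.

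Part of the genes of glycolysis and of the hypoxic response gave the same order. Of 30 with such a mean signal, 7 (23.3%) had a range of at least 1, beside 7.22% of all genes. In 6 of the 30, such a range had replicates 1 and 2 as the higher side, beside 1.58% of all genes. The examples here other than VEGFA and EGLN3 were named after their values were seen. NDRG1, a stress-response gene induced by hypoxia, read 21019, 25340.4, 7144 and 7874. BNIP3, which acts in mitophagy, read 7849, 10886, 4149 and 4345, and the prolyl hydroxylase EGLN3 read 384, 455, 101 and 170.5. The collagen prolyl hydroxylase P4HA1 read 4215, 4069, 2022 and 2044, and the hexokinase HK2 read 1882, 2022, 839.8 and 1013. Replicates did not overlap between the pairs in any of these. VEGFA, a classical hypoxia target, went the other way by a small step, with a range of 0.42.

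Over the whole list, both of replicates 1 and 2 lay above both of 3 and 4 in 18 of 30 genes (60%), beside 24.4% of all genes, and the reverse in 3 (10%), beside 32.7%. After median centring these counts were 13 (43.3%) and 7 (23.3%), beside 13.4% and 46.4% of all genes. Of 22 matrix protein genes with a mean signal of at least 200, 12 had both of replicates 1 and 2 above 3 and 4. That order held in 24.4% of all genes. The reverse held in 2 of the 22, beside 32.7% of all genes. Fibronectin, FN1, read 12256, 11114, 5663 and 5772, and thrombospondin, THBS1, read 9594, 7953, 3634 and 3687. COL1A1, a fibrillar collagen, has been given above and was likewise higher in replicates 1 and 2 on its brightest probe set. Another of its probe sets gave that order at 571, 382, 264 and 358. A further COL1A1 probe set did not, at 239, 649, 601 and 497.5, lowest in replicate 1. The summed signal of the 19 fibroblast markers was 17412, 17493, 12803 and 12667 in replicates 1 to 4, mostly from VIM. Without VIM the other 18 summed to 4981, 4075, 3135 and 3041. Without VIM and COL1A1 the other 17 summed to 2766, 2582, 2514 and 2465. FAP, given above, was also highest in replicates 1 and 2, whereas TWIST1, ACTA2 and THY1 did not separate the pairs and LUM was under the floor on every array. The part of fibroblast RNA in the matrix values was not tested. The serpin SERPINB2, an inhibitor of plasminogen activation, read 2571, 3819, 616 and 987.

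Among genes with a mean signal of at least 200, the widest range belonged to a target of the aryl hydrocarbon receptor, AHR, a ligand-activated factor that senses planar aromatic compounds and tryptophan products. CYP1A1, its best known target and an oxidising enzyme, read 329.9, 304, 5503 and 4985, a range of 4.18 or 18.1-fold. CYP1B1, a related enzyme, read 519, 422, 4316 and 3870.1, and the aldehyde dehydrogenase ALDH3A1 read 129, 176, 684 and 641. All 3 were low in replicates 1 and 2 and high in 3 and 4. TIPARP, a feedback inhibitor of AHR, read 1402, 1700.4, 2674 and 2575, in the same order with a range of 0.93. AHR itself read 1012, 1022, 997 and 1062 and its partner ARNT 474, 519.8, 334 and 415, so the receptor spanned only 0.09. NQO1, a target that AHR shares with NRF2, spanned 0.15.

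Of 12 genes of the AHR list with such a mean signal, 4 (33.3%) had a range of at least 1, beside 7.22% of all genes, and 3 of these had replicates 3 and 4 as the higher side, beside 1.55% of all genes. The remaining gene, a further cytochrome P450, read 191, 430, 345 and 411, so replicate 1 alone was low. Over the 12 genes, replicates 3 and 4 both lay above 1 and 2 in 7 (58.3%), beside 32.7% of all genes. The reverse held in 2 (16.7%), beside 24.4%. The promoter of CYP1A1 is shown because it is the gene of widest range at such a mean signal and its window holds the AHR core motif GCGTG. It lies on the minus strand at chr15:74725529-74725778 of GRCh38.p14 and is written on that strand, with the motif in capitals. The window has 1 match on either strand, and 31.9% of 27305 windows hold at least 1, as do 46.7% of those of genes with such a mean signal. That short motif is therefore common.
CYP1A1: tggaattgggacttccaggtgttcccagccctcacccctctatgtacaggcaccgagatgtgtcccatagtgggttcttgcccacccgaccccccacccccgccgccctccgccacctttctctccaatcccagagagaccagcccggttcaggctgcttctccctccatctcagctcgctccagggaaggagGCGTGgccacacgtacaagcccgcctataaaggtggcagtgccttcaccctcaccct

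Interferon-stimulated genes were broadly expressed without added interferon. Of 35 measured, 30 were detected, with a median percentile of 73.3. IFITM3, which blocks viral entry, read 17456, 17485, 13810.1 and 12217, IFI27 read 6269, 6003, 4729 and 4572, and ISG15, a ubiquitin-like modifier, read 5159, 4769, 5634 and 5226. The 4 arrays of each stayed within 1 log2 unit.

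A subset of the list differed between replicates. Of 31 interferon-stimulated genes with such a mean signal, 8 (25.8%) had a range of at least 1, beside 7.22% of all genes. In 5 of the 31, such a range had replicates 3 and 4 as the higher side, beside 1.55% of all genes. The IFIT genes encode proteins that bind viral RNA. IFIT1 read 1193, 1203, 3453 and 3166, IFIT2 read 546, 654, 2596 and 2227, and IFIT3 read 795, 891, 3004 and 2723. OASL, an antiviral relative of the oligoadenylate synthetases, read 2003, 1668, 3788 and 3760.2, and HERC5, a ligase for ISG15, read 859, 820.3, 1929 and 2014. All 5 gave replicates 3 and 4 as high. CXCL10, an interferon-induced chemokine on the cytokine list, read 315, 416, 847 and 751 in the same order.

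Most of the list did not share that step. IFI44 spanned 0.11, ISG15 0.24 and MX1 0.35 on the log2 scale. Over the 31 genes, replicates 3 and 4 both lay above 1 and 2 in 14 (45.2%), beside 32.7% of all genes. The reverse held in 6 (19.4%), IFITM3 among them, beside 24.4%. After median centring these counts were 19 (61.3%) and 4 (12.9%), beside 46.4% and 13.4% of all genes.

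The promoters of IFIT1 and IFIT3 are shown because these genes had the step and their windows hold GAAANNGAAA, the core of the interferon-stimulated response element. Both lie on the plus strand of GRCh38.p14, IFIT1 at chr10:89392373-89392622 and IFIT3 at chr10:89327747-89327996, and each holds 2 matches, in capitals, counting both strands. The capitals read as the reverse complement of the motif. The motif was found in 3.07% of 27305 windows and in 2.34% of those of genes with such a mean signal. HERC5 and CXCL10 have 3 and 1 matches, and no window was available for IFIT2 or OASL. The windows shown were chosen for their matches, and genes of the list without the step were not looked up. These shares are therefore background and not a test.
IFIT1: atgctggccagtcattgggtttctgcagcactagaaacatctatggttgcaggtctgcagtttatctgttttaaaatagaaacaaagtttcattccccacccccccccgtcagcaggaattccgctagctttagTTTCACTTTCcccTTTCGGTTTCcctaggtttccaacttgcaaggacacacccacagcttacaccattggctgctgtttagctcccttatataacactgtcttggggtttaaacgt
IFIT3: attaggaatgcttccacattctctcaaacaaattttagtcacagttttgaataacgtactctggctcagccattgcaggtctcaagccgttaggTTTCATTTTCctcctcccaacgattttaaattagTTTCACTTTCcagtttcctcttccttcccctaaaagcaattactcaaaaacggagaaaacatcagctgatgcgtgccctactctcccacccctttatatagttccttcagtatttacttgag

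Immediate early genes and genes of mitogen-activated kinase feedback were divided. Of 24 with such a mean signal, 7 (29.2%) had a range of at least 1, beside 7.22% of all genes. Replicates 3 and 4 both lay above 1 and 2 in 12 (50%), beside 32.7% of all genes, and the reverse held in 6 (25%), beside 24.4%. After median centring the first count was again 12, beside 46.4% of all genes. Several of the genes that follow were named after their values were seen. DUSP6, the phosphatase of ERK, read 1472, 1698, 4020.5 and 3743, and ETV5, an ETS factor induced by ERK, read 443, 319, 1056 and 1108. PHLDA1 read 1546, 1828, 3502 and 3553 and the AP-1 subunit FOSL1 read 1085, 989, 2097 and 2015. EGR1, an immediate early factor, had the opposite order at 3193, 3092, 787 and 948, as did KLF10 at 7204, 8168, 4064 and 4457.

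Proliferation genes differed by small steps, mostly in one direction. Of 42 with such a mean signal, only PLK1 had a range of at least 1, at 1827, 1416, 2768 and 2886. Replicates 3 and 4 nevertheless both lay above 1 and 2 in 26 of the 42 genes (61.9%), beside 32.7% of all genes. The reverse held in 8, beside 24.4% of all genes. After median centring these counts were 28 (66.7%) and 3, beside 46.4% and 13.4% of all genes. The median deviation was -0.19, -0.21, 0.22 and 0.17 in replicates 1 to 4. Beside this, the median log2 signal of all genes with such a mean signal was 10.06, 10.06, 10.12 and 10.15. CCNB1, the mitotic cyclin, read 5746, 5661, 7824 and 7443, TOP2A, the topoisomerase of dividing cells, read 3620.03, 4677, 6336 and 6544, and the mitotic kinase AURKA read 3925, 3626, 5923 and 5465. Of the genes of DNA replication, PCNA did not separate the pairs, and MCM6 read 8987, 11243, 8868 and 8601, with replicates 1 and 2 above 3 and 4 by a small step.

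**Figure D5:**
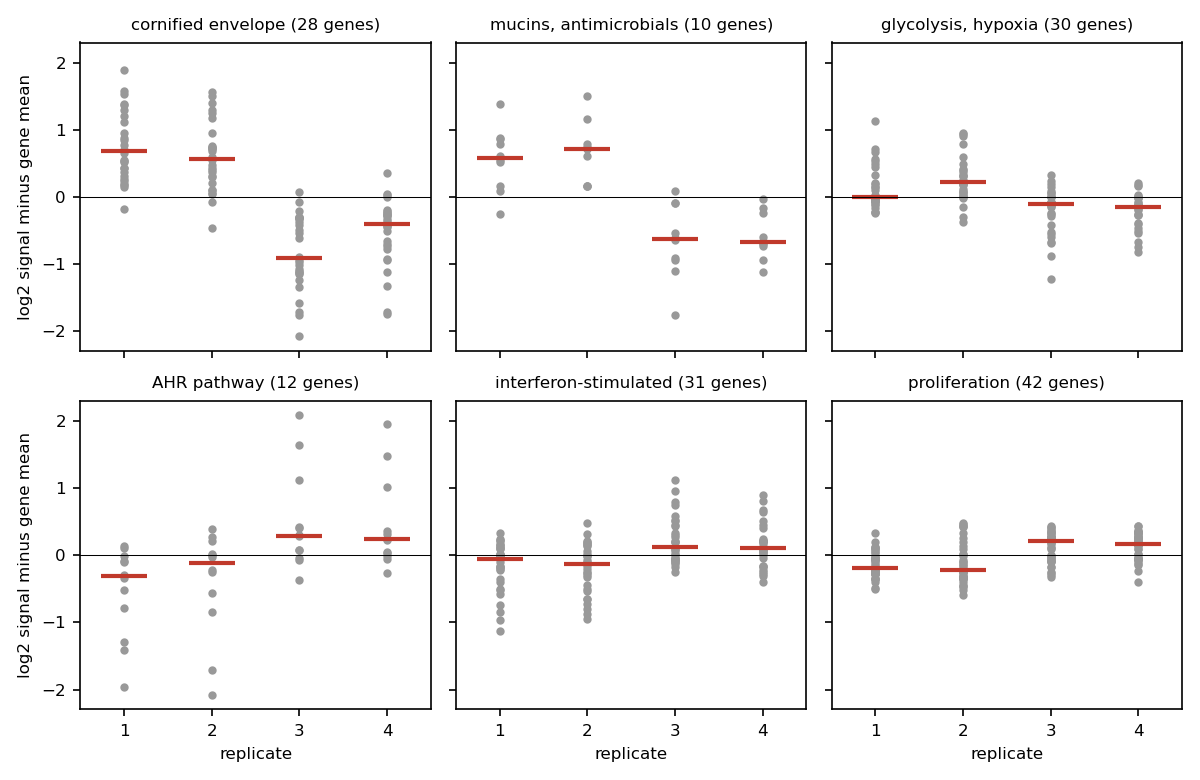
Deviation of each gene's log2 signal from its own mean over the 4 untreated arrays, by replicate, for 6 gene lists; grey points are genes at or above a mean signal of 200 and red bars are medians. For cornified envelope genes the medians are 0.68 and 0.57 in the first pair of replicates but -0.91 and -0.41 in the other pair; proliferation genes show the opposite order at a smaller scale.

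Bright lists differed in how far the replicates lay apart. None of 45 ribosomal proteins, 38 respiration genes, 13 metallothionein and zinc genes or 13 antigen presentation genes with a mean signal of at least 200 had a range of at least 1. Among other bright lists, a range of at least 1 occurred in 7 of 30 glycolysis and hypoxia genes, 5 of 33 cytoskeleton genes, 4 of 27 junction genes and 2 of 19 genes of basal keratinocyte identity, beside 7.22% of all genes. MT2A, a metal-binding metallothionein, read 32736, 41229, 33859.8 and 30554, and HLA-C read 13725, 16873, 14845 and 12693. Ribosomal proteins were still highest in replicate 2, with median deviations of -0.05, 0.27, -0.04 and -0.18 in replicates 1 to 4, beside the larger share of signal that the brightest probe sets held on that array.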

How the data were processed

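RNA of Ect1 cells was measured on Affymetrix Human Genome U133 Plus 2.0 arrays. The deposited values are linear intensity values, 1 per probe set and array; the submitters' processing notes list the tools GCOS 1.4, MAS5, RMA, Partek and R 2.6.1 without saying which step each served. The mean after trimming 2% at each end was alike on the 4 arrays, as global scaling gives. Labelling is described as single-cycle in the series' design text, but as whole-transcript sense-strand per the labels' protocols. Of 54613 probe sets, the deposited annotation gave 39873 a single symbol; 13164 had none, 1522 had several and 54 had one that a spreadsheet had turned into a date. Only the first kind was named, and 2739 symbols were updated through RefSeq's gene table. No normalization was added. Values under 16 were set to 16 and a gene took its probe set of highest mean. Python 3.11.15, numpy 2.4.6, pandas 2.3.3 and matplotlib 3.10.9 were used, and counts of ranges and orders were tested on simulated data. Alternatives were other detection levels, floors, probe set choices, quantile normalization, median centring and leaving out each replicate.

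The members and the 38 lists (1081 genes, 1043 measured) were chosen with earlier results of these data known. The rule named the 30 brightest genes, the 20 of widest range, from each list the 6 brightest, 2 dimmest and the most variable, and all keratins, receptors, interferon-stimulated genes and AHR targets; not all of these are printed. Others, such as NDRG1, BNIP3, P4HA1, HK2, SPRR1A, SERPINB3, CNFN, GRHL1, GJB2, GJB6, LCN2, THBS1, CXCL10, DUSP6, ETV5, PHLDA1, FOSL1, EGR1, TOP2A, AURKA, PLK1, MALAT1, ASNS and H19, were named after their values were seen. Some items are not reported here.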

Additional observations from a re-analysis of the deposited data

Results flagged for a closer look

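In these groups of 4, a reading counted as standing apart when its gap to the nearest other reading, divided by the whole range on the log2 scale, was above Dixon's 95% critical value. Chance gives this for about 1 in 20 groups. It occurred in 17 of the 194 genes named here and in 5.14% of the 10636 genes at or above a mean signal of 200. Only 156 of the genes named here were at or above that mean, so these shares are not of like sets.

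Replicate 2 was the high one in 6 of the 17: KRT6A (ratio 0.842), DSP (0.896), PERP (0.888), TPT1 (0.847), MCM6 (0.836) and KRT78 (0.953). It was the low one in KRT1 (0.892), a gene below 200 on every array. Replicate 1 was low in CDKN1A (0.917), KRT10 (0.899) and KRT2 (0.861), and high in CSF1R (0.909) and TGFB2 (0.904). Replicate 4 was high in PTGS1 (0.852) and DSG1 (0.837). In FLG, NGFR and MUC5B the ratio was 1.0, because 3 of the 4 readings were at the floor of 16. Of the 38 lists, the median percentile of Notch, Wnt and Hippo genes gave 0.846 and that of fibroblast genes 0.8292, just over that value. None of these readings was given an explanation here.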

How the results depend on the processing

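No paired analysis was possible because the replicates form 1 group with no contrast. The number of genes detected on all arrays was 11524 at a level of 100 and 7413 at a level of 500, against 9998, and lay between 10077 and 10183 when 1 replicate was left out. The number of genes with a range of at least 1 was 473 to 613 without 1 replicate, against 768; a range over 3 arrays is smaller by construction. The median SD was 0.22 under median centring against 0.20, and 0.17 to 0.21 without 1 replicate. With the median over a gene's probe sets, 19 of the first 30 genes were shared, and 26 to 28 were shared without 1 replicate. The median percentile was above 50 for 31 of the 38 lists, also for 31 whichever replicate was left out. The median over a gene's probe sets moved 152 of 431 reported values by more than their SD over the replicates (counts by over 1.5-fold), and leaving out the _s_at and _x_at types moved 83 of 430. Quantile normalization moved 24 of 431, median centring 25 of 430, a floor of 64 moved 39 of 429 and a floor of 1 moved 17 of 429. Leaving out replicate 2 moved 56 of 431, and leaving out any other replicate 12 to 22. Signals near the floor of 16 have no order, and with them no difference between replicates can be read.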

Other observations

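Among genes that no list held, several bright ones differed between the replicates. MALAT1, a nuclear long noncoding RNA, read 28137, 10954, 38503 and 37620.4 in replicates 1 to 4 and was low in replicate 2 alone, whereas NEAT1, its nuclear neighbour in the genome, read 11540.00, 18816, 9025 and 8807 and was highest there. H19, an imprinted noncoding RNA, read 6546, 6108, 12359 and 10754, so replicates 3 and 4 were high. ASNS, the asparagine synthetase that amino acid shortage induces, read 6483, 5539, 1580.4 and 1697, with replicates 1 and 2 high. LOX, an enzyme that crosslinks collagen, read 1504, 1185, 246 and 356 in the same order, and CASP14, a caspase of cornifying cells, read 3004, 2399, 721 and 799. IGFBP3, which binds insulin-like growth factors, read 1947, 1223, 291 and 645, lowest in replicate 3. HSPA6, a strictly heat-inducible chaperone, read 326, 188, 593 and 1418, highest in replicate 4.

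Probe sets with no gene symbol held signal too. Of 13164 such probe sets, 980 (7.44%) were at 200 or above on all 4 arrays, beside 40.8% of those with a single symbol.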
